A study of Mus musculus with 24 samples.

Results

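The histone genes of the Hist1, Hist2, Hist3 and Hist4 clusters were described in sorted mouse spleen cells. Members were taken by name, as every gene whose symbol joins Hist1, Hist2, Hist3 or Hist4 to a histone number, h1 to h4. The rule found 68 of the 23479 genes in the table: 6 linker histone genes (H1) and 62 core histone genes, namely 18 H2A, 19 H2B, 12 H3 and 13 H4. Not every member is a replication-dependent gene, because the names also cover 1 processed pseudogene (Hist3h2bb-ps) and the testis-type genes Hist1h1t, Hist1h2aa and Hist1h2ba.

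Total RNA was sequenced from monocytic (M-MDSC) and polymorphonuclear (PMN-MDSC) myeloid-derived suppressor cells, which are immature myeloid cells that collect in tumour-bearing hosts and can restrain T cells. All mice carried B16 melanomas larger than 25 mm2, and the cells were purified by FACS from the spleen. Lymphodepleted (LD) mice had received cyclophosphamide and fludarabine, which damage DNA or block its synthesis, and spleens were taken at day 7 after treatment. Untreated (UT) mice had the tumour without the drugs. The IL-6KO mice carried the Il6tm1Kopf allele (strain B6.129S2-Il6tm1Kopf/J) and the wild-type (WT) mice were C57BL/6. Each cell type had 4 groups of 3 libraries: IL-6KO LD, WT LD, IL-6KO UT and WT UT, which makes 8 groups and 24 libraries. The series' design gives 3 mice for each treatment and genotype except IL-6KO LD, for which it gives no number. The mice's ages, and whether the M-MDSC and PMN-MDSC libraries of one number came from one mouse, is information the sources used here do not give. Without it, p-values measure only the spread between these libraries. In bulk RNA of this kind, fewer cells making a transcript and less of it per cell cannot be told apart.

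Core histones form the octamer around which DNA is wound, and H1 binds the DNA between octamers. A dividing cell makes most of its histones during S phase, when new DNA must be packaged, so messages of these genes are textbook marks of DNA replication. Most replication-dependent histone messages carry no poly(A) tail. They end just after a conserved stem-loop that is bound by the protein SLBP, and they are degraded when DNA synthesis stops. Because the libraries were made from total RNA with ribosomal RNA reduced, and not by poly(A) selection, per the labels' protocols, messages without a tail could be counted.

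The libraries held between 3249647 and 11193088 reads assigned to genes. M-MDSC libraries held 7237462 to 11193088 reads and PMN-MDSC libraries 3249647 to 9999731. Of these reads the 68 histone genes took 3267 to 83343 per library, or 0.0593% to 0.745%. The values below are the authors' normalized read counts, in which each library was divided by a size factor. A list of 6 monocyte genes did not separate the cell types by its sum, which was 21624 to 33831 normalized counts in the 12 M-MDSC libraries, against 22382 to 31135 in the 12 PMN-MDSC libraries. Within it Itgam (CD11b), which both cell types carry, had 4797 to 8036 in M-MDSCs, against 17515 to 28590 in PMN-MDSCs. F13a1 had 5146 to 11398 in M-MDSCs, against 54.3 to 683 in PMN-MDSCs, and Ccr2, Cx3cr1 and F13a1 were higher in every M-MDSC library than in any PMN-MDSC library. Ly6c2 and Csf1r overlapped between the cell types. A list of 6 granulocyte genes (Cxcr2, S100a8, S100a9, Mmp8, Retnlg and Csf3r) summed to 2751 to 21820 in M-MDSCs, against 82197 to 149000 in PMN-MDSCs. Il6 itself went against its label: it had 16.2 to 219.7 normalized counts in the 12 libraries labelled IL-6KO, against 0 to 7.20 in the 12 labelled WT. The table gives 1 value per gene, so whether those reads lie in the altered stretch of the allele was not tested, and the genotypes are therefore given as labels ("KO-labelled", "WT-labelled").

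In the GRCm38 genome 54 of the 68 genes lay in the Hist1 cluster at chr13:21715763-23934851, a span of 2219 kb. The Hist2 cluster held 10 genes at chr3:96219865-96270132, the Hist3 cluster 3 genes at chr11:58948920-58956830, and Hist4h4 was the 1 gene of Hist4, at chr6:136801553-136804415. A single exon block was annotated for 63 of the 68 genes. The copies resemble each other closely: in 30 genes fewer than 50% of the 50-base windows of the transcript occurred in no other annotated gene, and in 14 genes fewer than 15% did, so the split of reads among such copies is uncertain. An annotated gene overlapped 24 of them on either strand and 7 on the same strand, and the sources used here do not say whether reads were counted by strand. An H2A and an H2B gene stood head to head in 13 pairs, with starts 173 to 306 bases apart. One such pair is Hist2h2ac and Hist2h2be, 239 bases apart, and another is Hist1h2ak and Hist1h2bn, 296 bases apart.

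The stem-loop at the end of the message is the feature that most of these genes share, and it is shown for genes that recur in the results. Each sequence is the sense strand, from the GENCODE transcripts on GRCm38, with the 16-base stem-loop in capitals and 5 flanking bases on either side.
Hist1h1c: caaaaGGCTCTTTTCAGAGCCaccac
Hist3h2a: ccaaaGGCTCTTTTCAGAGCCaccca
Hist1h1t: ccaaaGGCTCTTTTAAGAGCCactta
Hist1h3c: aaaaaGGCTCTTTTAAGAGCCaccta
Hist1h2bk: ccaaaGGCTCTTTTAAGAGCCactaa
Hist1h4d: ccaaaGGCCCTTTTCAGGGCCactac
Hist4h4: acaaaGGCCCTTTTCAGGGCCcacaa
Hist1h4i: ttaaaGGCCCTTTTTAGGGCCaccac
The 16 bases lie at chr13:23739512-23739527 in Hist1h1c, at chr11:58955172-58955187 in Hist3h2a, at chr13:23696525-23696540 in Hist1h1t and at chr13:22036300-22036315 in Hist1h2bk, all on the plus strand. In Hist1h3c they lie at chr13:23745047-23745062 and in Hist1h4i at chr13:22040966-22040981, both on the minus strand. The Hist1h4d element is at chr13:23581950-23581965 on the plus strand and that of Hist4h4 at chr6:136803998-136804013 on the minus strand. A stem-loop was found in the annotated transcript of 46 of the 68 genes. In 23 of the 46 the transcript ended within 100 bases after it, and in the other 23 an annotated transcript ran on for more than 100 bases. The stem-loop differed by histone type: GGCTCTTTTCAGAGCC stood in 3 H1, 10 H2A, 8 H2B and 5 H3 genes. H4 genes carried other stems, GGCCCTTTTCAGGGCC in 7 and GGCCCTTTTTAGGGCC in 2.

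Promoters are shown for 4 abundant or strongly changing genes of different types, because the members moved together. They are the 120 bases before the RefSeq start on GRCm38.p6, in the gene's direction, with matches in capitals. The motifs searched were CCAAT, the sequence TATAAA and the octamer ATTTGCAT, each on either strand, so a CCAAT of the other strand reads ATTGG.
Hist1h1c: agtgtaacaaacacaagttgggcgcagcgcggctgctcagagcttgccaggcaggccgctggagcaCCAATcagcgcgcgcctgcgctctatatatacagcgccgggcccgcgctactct
Hist1h2bk: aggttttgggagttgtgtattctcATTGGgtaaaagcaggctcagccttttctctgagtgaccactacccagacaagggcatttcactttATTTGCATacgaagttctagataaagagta
Hist2h2bb: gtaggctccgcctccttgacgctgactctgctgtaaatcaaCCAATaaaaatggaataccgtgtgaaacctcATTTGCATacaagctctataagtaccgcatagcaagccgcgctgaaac
Hist1h4d: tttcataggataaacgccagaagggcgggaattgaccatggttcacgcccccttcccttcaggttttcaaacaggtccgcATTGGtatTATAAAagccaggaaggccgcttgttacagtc
These are chr13:23738687-23738806, chr13:22035701-22035820, chr3:96269580-96269699 and chr13:23581448-23581567, all on the plus strand. A promoter was matched for 62 of the 68 genes, and its 250 bases before the start were searched, each motif on its own and on both strands. CCAAT was present in 82.3% of these, against 34.5% of all 27025 RefSeq promoters. TATAAA was present in 46.8%, against 13% of all promoters. The octamer ATTTGCAT was present in 21%, against 1.61% of all promoters, and only in H2A (38.9%) and H2B (37.5%) genes. CCAAT was present in 100% of the H1, H2A and H2B promoters matched, in 80% of the H3 and in 25% of the H4 promoters. A match describes these letters and is not evidence of a bound site.

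Per kilobase of annotated exon and averaged over the 24 libraries, the linker gene Hist1h1c was the most abundant member, at 2876 normalized counts per kilobase. It was followed by the core gene Hist2h2bb at 1575 and by the linker gene Hist1h1e at 1428, an order that turned between groups. In WT-labelled LD M-MDSCs Hist2h2bb had 4931 and Hist1h1e 2169 normalized counts per kilobase, against 319.6 and 1089 in WT-labelled UT M-MDSCs. Hist2h2bb was above Hist1h1e on this scale in the LD M-MDSCs of both labels and below it in the other 6 groups. Among the other core genes Hist1h2ak (H2A) had 964, Hist1h4f (H4) 838.7, Hist1h2bn (H2B) 732.3 and Hist1h4d (H4) 657.2 normalized counts per kilobase. H3 genes were lower on this scale, with 253.9 for Hist1h3b, 222 for Hist1h3e and 205.7 for Hist1h3c. Hist1h1c, Hist1h1e and Hist1h1d together made up 49.8% of the summed normalized counts of all members. The 10 highest core genes made up 49.7% of the core sum. No read was found in any library for 4 members, Hist1h2ap, Hist2h2aa1, Hist1h2bq and Hist1h2br. Reads were present in all 24 libraries for 38 members.

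**Figure D1:**
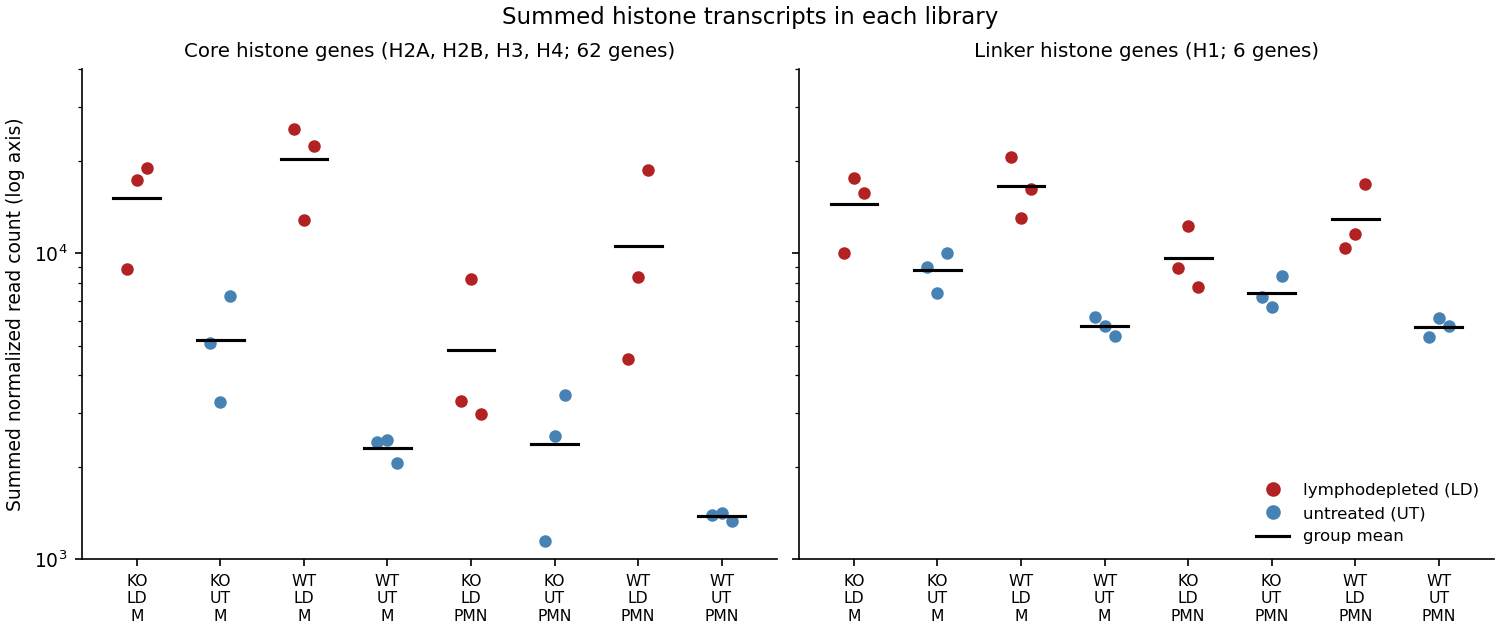
Summed normalized read counts (log axis) of the 62 core histone genes (left) and the 6 linker H1 genes (right) in each library of the 8 groups, red for lymphodepleted and blue for untreated, with a black line at the group mean. In WT-labelled M-MDSCs the core sum was 12822 to 25567 in LD libraries, against 2069 to 2453 in UT libraries, while the linker genes lay closer together.

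Lymphodepletion and histone transcripts in WT-labelled M-MDSCs were compared first. Core histone transcripts were far more abundant in LD M-MDSCs than in UT M-MDSCs, in every histone type and in the Hist1, Hist2 and Hist4 clusters. The Hist3 cluster was also higher, with a mean sum of 559.2 in LD, against 193.1 in UT libraries, a ratio of 2.90 without overlap. The core sum was 25567, 12822 and 22454 normalized counts in the 3 LD libraries, against 2410, 2453 and 2069 in the 3 UT libraries. No UT library reached the lowest LD library. The means were 20281 ± 6645 in LD and 2311 ± 210.2 in UT libraries (SD, n = 3 each), a ratio of 8.78. By type the ratio of the LD to the UT mean was 13.3 for H3, 9.98 for H4, 8.24 for H2B and 6.95 for H2A, and each type's LD libraries lay above its UT libraries. Linker H1 genes summed to 16670 ± 3817 in LD and 5798 ± 409.8 in UT libraries, a ratio of 2.88, again with no overlap. The linker share of all histone counts was accordingly 42.1% to 50.4% in LD libraries, against 70.3% to 72.2% in UT libraries.

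Of the 68 genes, 56 passed the filter (at least 10 normalized counts in at least 3 of the 12 M-MDSC libraries) and were tested with limma. In WT-labelled M-MDSCs 54 of the 56 rose with LD at a Benjamini-Hochberg adjusted p under 0.05 and none fell, against 9.52% of the 11570 genes tested that rose and 8.82% that fell. The LD libraries all lay above the UT libraries in 55 of the 56, against 16.9% of all genes tested. Some members passed the filter through their LD libraries: 39 of the 56 reached 10 normalized counts in all 3 UT libraries, and 38 of those 39 rose. The median log2 change of the 56 was 3.41, against -0.07 for all genes tested. All 5 tested H1 genes rose, as did 13 of 13 H2A, 14 of 16 H2B, 10 of 10 H3 and 12 of 12 H4 genes. By cluster 46 of 46 Hist1 genes rose, 5 of 6 Hist2, 2 of 3 Hist3 and the 1 Hist4 gene. Leaving out any 1 of the 12 libraries left 52 to 54 genes called, 51 of them in every one of these fits.

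**Figure D2:**
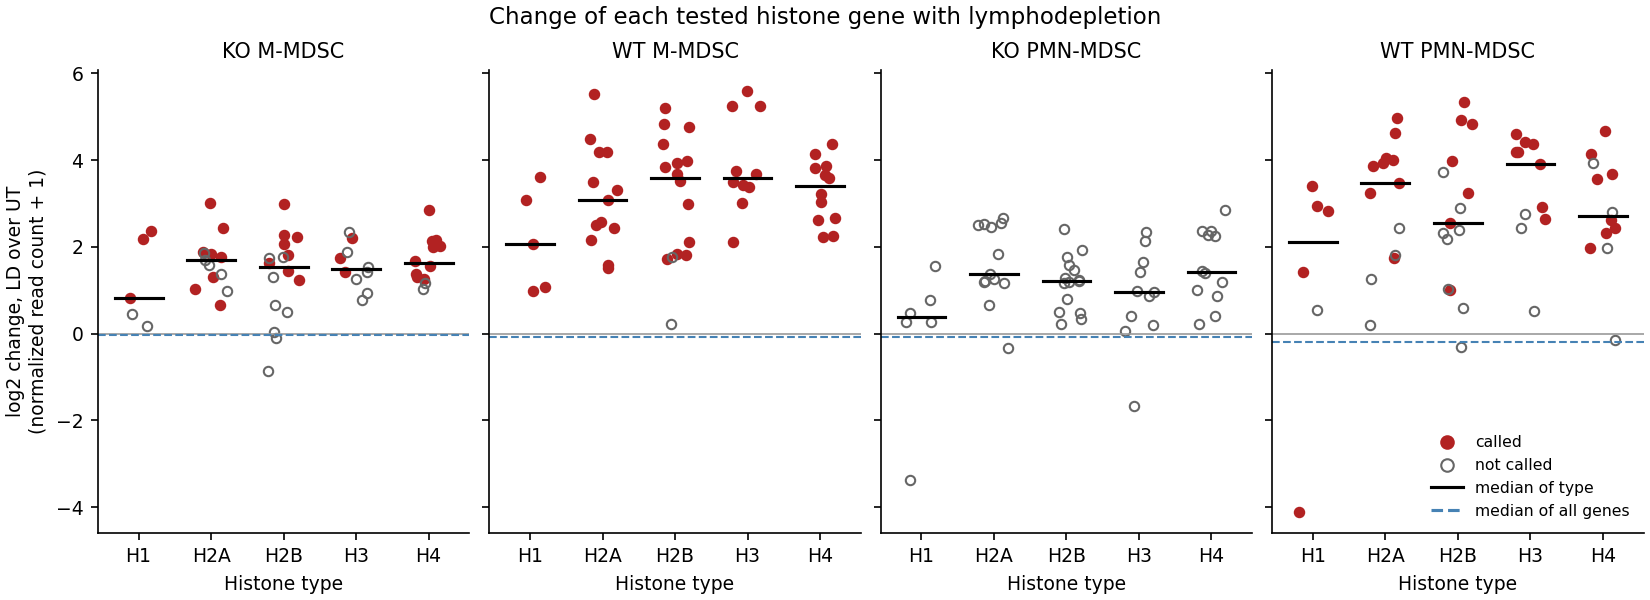
Log2 change with lymphodepletion (LD over UT, limma on log2 of normalized count plus 1) of each tested member by histone type, in 4 panels for KO-labelled and WT-labelled M-MDSCs and then PMN-MDSCs. Filled points passed the adjusted p threshold, open points did not, black bars are medians of a type and the dashed blue line is the median of all genes tested. The median of the tested members was 1.58 in KO-labelled and 3.41 in WT-labelled M-MDSCs, and 1.21 in KO-labelled and 2.90 in WT-labelled PMN-MDSCs.

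The largest rises were in H3 and H2A genes of Hist1. Hist1h3c, an H3 gene at chr13:23744973-23745602, had 494, 159 and 318 normalized counts in WT-labelled LD M-MDSCs, against 2.36, 10.8 and 4.72 in UT M-MDSCs. Its lowest LD library stood far above its highest UT library, and the log2 change was 5.59 ± 0.58 (SE; limma, adjusted p = 9.5e-05). Hist1h2af, an H2A gene at chr13:23533906-23534304 with 20.3% unique windows, had 789, 373 and 812 normalized counts in LD, against 7.07, 22.5 and 12.3 in UT libraries. It rose by 5.52 ± 0.66 on the log2 scale (adjusted p = 0.000152). Hist1h3b (H3) had 956, 136 and 282 normalized counts in LD, against 8.64, 8.33 and 6.61 in UT libraries, a log2 change of 5.24 ± 0.69 (adjusted p = 0.000212). Hist1h3g (H3) was close to absent in UT libraries, with 152, 23.98 and 48.3 normalized counts in LD, against 0.785, 0 and 0.944 in UT. For a gene this low the log2 change of 5.24 ± 0.86 (adjusted p = 0.000901) depends on the 1 added before taking logs. In the H3 genes LD replicate 1 was the highest and LD replicate 2 the lowest of the 3 LD libraries.

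The abundant core genes rose as well. Hist2h2bb, an H2B gene at chr3:96269752-96270132 whose windows are all unique but which overlaps Gm42743 on the same strand, had 1755, 1595 and 2286 normalized counts in LD, against 145, 105 and 115 in UT M-MDSCs. Its log2 change was 3.93 ± 0.36 (limma, adjusted p = 8.84e-05). Hist1h4d, an H4 gene at chr13:23581598-23582735, had 2271, 1143 and 2133 normalized counts in LD, against 191, 228 and 158 in UT M-MDSCs. It rose by 3.21 ± 0.32 (adjusted p = 8.84e-05), and in both genes the groups stood apart. The other abundant H4 genes rose too, Hist1h4f by 4.36 ± 0.56 and Hist1h4c by 2.63 ± 0.28 on the log2 scale. Hist1h2ak (H2A) had 1389, 554 and 895 normalized counts in LD, against 81.7, 85.8 and 65.1 in UT libraries, and rose by 3.50 ± 0.49 (adjusted p = 0.000301). Its head-to-head partner Hist1h2bn (H2B) rose by 3.97 ± 0.43 (adjusted p = 0.000102). Hist1h3e, the most abundant H3 gene by counts, had 915, 210.4 and 479 in LD, against 47.9, 69.1 and 51.0 in UT libraries.

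The 5 tested linker genes had a median log2 change of 2.07, against 3.50 for the 51 tested core genes. Hist1h1c, at chr13:23738808-23740367, had 7165, 3886 and 5021 normalized counts in WT-labelled LD M-MDSCs, against 2599, 2523 and 2239 in UT M-MDSCs. The groups did not overlap and it rose by 1.08 ± 0.22 on the log2 scale (limma, adjusted p = 0.0038). Hist1h1e had 4843, 3349 and 4368 normalized counts in LD, against 2248, 2021 and 2037 in UT libraries, a rise of 0.98 ± 0.17 (adjusted p = 0.00114). Hist1h1e shares a strand and position with Hist1h2be, so their reads can be confused. Hist1h1d rose more, with 4999, 2848 and 3509 in LD, against 949, 902 and 789.8 in UT libraries (2.07 ± 0.24, adjusted p = 0.000144). Hist1h1a, another linker gene, rose by 3.62 ± 0.50 (adjusted p = 0.000268).

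The H2B genes Hist2h2be and Hist3h2ba did not pass the test. Hist2h2be, at chr3:96221119-96223738 and fully unique, is known in human cells for a polyadenylated form made outside S phase. It had 39.4, 53.4 and 70.7 normalized counts in LD, against 48.7, 54.1 and 34.9 in UT M-MDSCs. The groups overlapped, with a log2 difference of 0.23 ± 0.32 (limma, adjusted p = 0.663). Its head-to-head partner Hist2h2ac, chosen here after its values were seen, had 855, 265 and 446 in LD, against 92.6, 105 and 62.3 in UT libraries, and rose by 2.45 ± 0.39 (adjusted p = 0.000661). Hist3h2ba had 9.98, 11.6 and 14.7 in LD, against 5.50, 3.33 and 0.944 in UT libraries, at an adjusted p of 0.0929. Hist1h2bc and Hist1h2ac, a pair 251 bases apart, both rose, by 1.82 ± 0.24 and 1.60 ± 0.21. Hist3h2a, which overlaps Trim17 on the same strand, had 469, 527 and 565 in LD, against 163, 216 and 168 in UT libraries, a rise of 1.52 ± 0.15 (adjusted p = 8.87e-05). Hist4h4 had 249, 173 and 343 in LD, against 62.8, 41.6 and 49.1 in UT libraries, a rise of 2.26 ± 0.30 (adjusted p = 0.000212). The pseudogene Hist3h2bb-ps rose by 1.73 ± 0.57 (adjusted p = 0.0493).

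The members were also grouped by where their annotated transcript ends. Among the tested members whose transcript ended near the stem-loop the median log2 change was 4.01, and 18 of 18 rose. Among those whose annotated transcript ran past it the median was 2.42, and 19 of 20 rose. Members without a stem-loop in the transcript had a median of 3.50, with 17 of 18 called. These medians describe the members that passed the filter and no test of their difference was made.

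**Figure D3:**
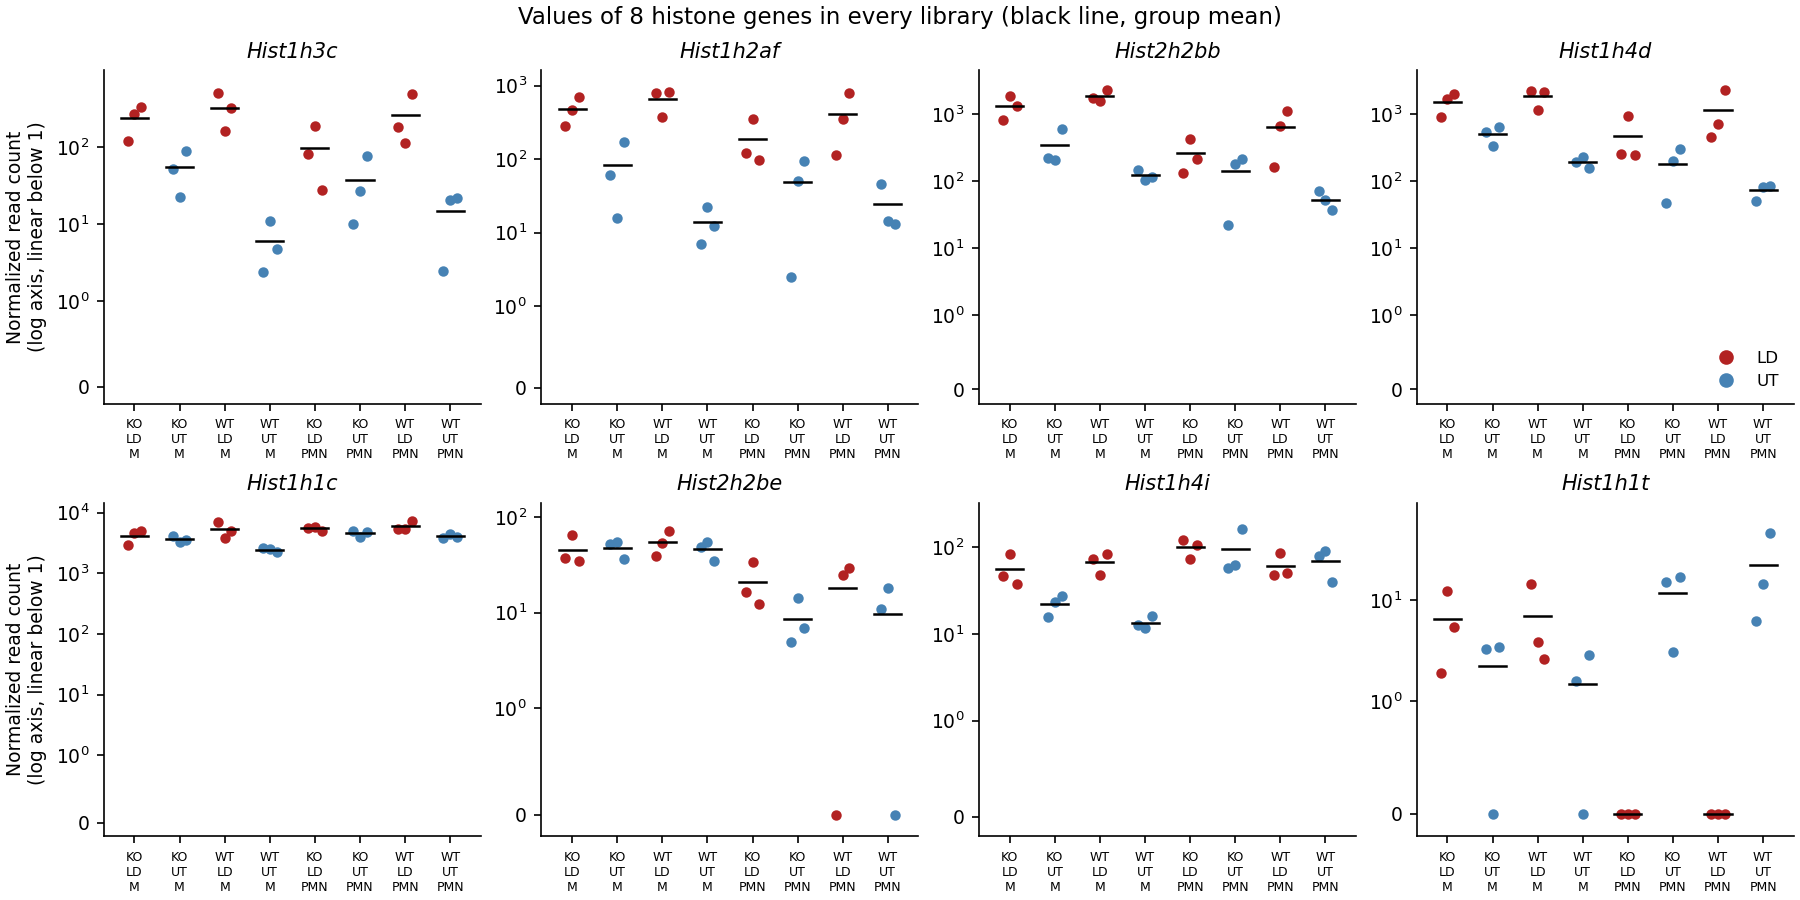
Normalized read counts (log axis, linear below 1) of 8 named members in every library of the 8 groups, red for lymphodepleted and blue for untreated, with a black line at the group mean. Hist1h3c, Hist1h2af, Hist2h2bb and Hist1h4d lay higher in LD than in UT M-MDSCs, Hist1h1c stayed between 2239 and 7378 in all libraries, and Hist1h1t was listed at 0 in all LD PMN-MDSC libraries.

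In KO-labelled M-MDSCs core histone transcripts were also higher after lymphodepletion, by a smaller ratio and from a higher untreated level. The core sum was 8924, 17439 and 19023 normalized counts in LD libraries, against 5095, 3271 and 7282 in UT libraries. The groups did not overlap, though the lowest LD library was near the highest UT library. The means were 15128 ± 5432 in LD and 5216 ± 2009 in UT libraries (SD, n = 3 each), a ratio of 2.90. The ratio was 3.31 for H4, 2.80 for H2A, 2.76 for H3 and 2.69 for H2B. The H1 sum overlapped between the groups, at a ratio of 1.64. H1 genes made up 45.4% to 52.9% of histone counts in LD libraries, against 58% to 69.5% in UT libraries.

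By limma 32 of the 56 tested members rose in KO-labelled M-MDSCs and none fell, against 6.11% of the 11570 genes tested that rose and 5.52% that fell. At an unadjusted p under 0.05 there were 46 higher, against 13.1% of all genes. In UT libraries 46 of the 56 reached 10 normalized counts in all 3, and 29 of the 46 rose. The median log2 change was 1.58, against -0.02 for all genes. H4 genes passed in 10 of 12 cases, H2A in 8 of 13, H2B in 8 of 16, H3 in 3 of 10 and H1 in 3 of 5. The count was 15 without LD replicate 2, 21 without LD replicate 3, 15 without UT replicate 1 and 18 without UT replicate 2, and 13 genes were called in every such fit. Fitted with all 24 libraries together, 5 of the members were called.

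The largest rises were in Hist1h2af, Hist1h2bk, Hist1h4f and Hist1h2ab. Hist1h2af had 280.2, 467 and 709.6 normalized counts in KO-labelled LD M-MDSCs, against 60.1, 15.9 and 173 in UT M-MDSCs, a log2 change of 3.01 ± 0.66 (limma, adjusted p = 0.0101). Hist1h2bk, an H2B gene at chr13:22035870-22036345 with 25.8% unique windows, had 79.8, 255 and 278 in LD, against 20.3, 6.61 and 69.3 in UT libraries, a rise of 3.00 ± 0.66 (adjusted p = 0.0101). Hist1h4f had 397, 1125 and 707 in LD, against 66.7, 47.6 and 256 in UT libraries, a rise of 2.85 ± 0.56 (adjusted p = 0.00608). In all 3 genes UT replicate 3 was the highest UT library, and LD and UT libraries stood apart. Hist1h2ab (H2A) had 181, 407 and 508 in LD, against 52.9, 23.1 and 179.5 in UT libraries (2.44 ± 0.59, adjusted p = 0.0168), with LD replicate 1 barely above UT replicate 3. Hist2h2bb rose by 2.07 ± 0.36 (adjusted p = 0.0032), Hist1h4d by 1.57 ± 0.32 (adjusted p = 0.00682) and Hist1h3c by 2.20 ± 0.58 (adjusted p = 0.024).

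Several genes that rose with the WT label missed the threshold with the KO label, although the difference between the labels passed the test for no member. Hist1h1c had 2937, 4586 and 5023 normalized counts in KO-labelled LD M-MDSCs, against 4092, 3326 and 3510 in UT M-MDSCs, which overlap (0.17 ± 0.22, limma, adjusted p = 0.672). Hist1h1e gave 0.46 ± 0.17 (adjusted p = 0.0896), while Hist1h1d rose by 0.83 ± 0.24 (adjusted p = 0.0392). Hist1h3b gave 1.89 ± 0.69 (adjusted p = 0.098) and Hist1h2ak 1.59 ± 0.49 (adjusted p = 0.0529). Hist2h2be had 37.1, 64.0 and 35.0 in LD, against 52.3, 54.2 and 36.0 in UT libraries, with no change passing the test (-0.10 ± 0.32, adjusted p = 0.882). Hist4h4 rose by 1.31 ± 0.30 (adjusted p = 0.0118), Hist3h2a by 0.66 ± 0.15 (adjusted p = 0.0126) and Hist1h2bc by 1.24 ± 0.24 (adjusted p = 0.00543). Hist3h2ba (-0.86, adjusted p = 0.47) and Hist3h2bb-ps (0.04, adjusted p = 0.975) did not pass.

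In WT-labelled PMN-MDSCs core histone transcripts were higher in LD than in UT cells, with a wide spread among LD mice. The core sum was 4510, 8385 and 18766 normalized counts in LD libraries, against 1395, 1418 and 1336 in UT libraries. The UT libraries lay within a narrow band, and the lowest LD library was above all of them. The means were 10554 ± 7371 in LD and 1383 ± 42.2 in UT libraries (SD, n = 3 each), a ratio of 7.63. H3 had the highest ratio at 10.96, followed by H4 at 9.09, H2A at 7.78 and H2B at 5.73. H1 genes summed to 12944 in LD and 5759 in UT libraries on average, a ratio of 2.25 with no overlap. LD replicate 1, the shallowest library of all with 3249647 reads, had the lowest core sum of the 3 LD libraries.

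By limma 36 of the 57 members tested in PMN-MDSCs rose and 1 fell, against 4.14% of the 12971 genes tested that rose and 6.73% that fell. Only 26 of the 57 reached 10 normalized counts in all 3 UT libraries, and 19 of these rose. The median log2 change was 2.90, against -0.20 for all genes. H3 genes rose in 8 of 11 cases, H2A in 9 of 13, H4 in 8 of 12, H2B in 7 of 15 and H1 in 4 of 6. The number called was 19 without LD replicate 3, 11 without UT replicate 1, 13 without UT replicate 2 and 22 without UT replicate 3. In every one of the fits that left out 1 library, 7 genes were called.

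The largest rises were in H2B and H2A genes that had few or no reads in UT PMN-MDSCs. Hist1h2bn had 189, 326 and 926 normalized counts in WT-labelled LD PMN-MDSCs, against 15.9, 9.60 and 13.1 in UT PMN-MDSCs, a log2 change of 4.83 ± 0.86 (limma, adjusted p = 0.00781). Hist1h2bk had 25.7, 160.5 and 149.7 in LD, against 8.56, 0 and 0 in UT libraries (5.35 ± 1.12, adjusted p = 0.0127). Hist1h2ai (H2A) had 48.2, 93.7 and 331 in LD, against 2.45, 13.2 and 0 in UT libraries (4.98 ± 1.03, adjusted p = 0.0126). Hist1h2bh (H2B) had 57.8, 57.5 and 215 in LD, against 2.45, 0 and 6.53 in UT libraries (4.94 ± 1.21, adjusted p = 0.0233). In each of these 4 genes every LD library was above every UT library, and with so few UT reads the size of the log2 change depends on the added 1. In this comparison only LD libraries of Hist1h2bk and Hist1h2bh reached the filter value of 10 normalized counts, and 1 UT library of Hist1h2ai did. The filter thus favoured a rise in these genes. Of the abundant genes, Hist1h4d had 466, 723 and 2284 in LD, against 50.2, 82.8 and 84.9 in UT libraries (3.68 ± 0.67, adjusted p = 0.00781). Hist2h2bb had 160.5, 673 and 1128 in LD, against 71.0, 51.6 and 37.0 in UT libraries (3.25 ± 0.77, adjusted p = 0.0207). Hist1h1d had 1631, 1918 and 3093 in LD, against 187, 317 and 348 in UT libraries (2.95 ± 0.42, adjusted p = 0.00488). In all 3 the LD libraries stood above the UT libraries, with LD replicate 3 highest.

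The linker genes, the Hist3 and Hist4 members and a few others were read one by one in WT-labelled PMN-MDSCs, and some rose while others did not pass the test. Hist1h1c had 5415, 5422 and 7378 normalized counts in LD, against 3844, 4473 and 3970 in UT libraries, with no overlap but an adjusted p of 0.0767 (limma, 0.56 ± 0.20). Hist1h1e rose by 1.43 ± 0.28 (adjusted p = 0.0106) and Hist1h2bc by 0.998 ± 0.27 (adjusted p = 0.0312). Hist1h4i, an H4 gene at chr13:22040636-22041362, had 48.2, 85.3 and 49.6 in LD, against 79.5, 90.0 and 39.2 in UT libraries, and the groups overlapped (-0.15 ± 0.50, adjusted p = 0.872). The same gene in WT-labelled M-MDSCs had 73.2, 47.2 and 82.8 in LD, against 12.6, 11.7 and 16.04 in UT libraries, where it rose by 2.23 ± 0.36 (adjusted p = 0.000799). Hist2h2be had 0, 25.0 and 29.4 in LD, against 11.01, 18 and 0 in UT PMN-MDSCs, and at this depth no difference was detectable (0.60 ± 1.33, adjusted p = 0.804). Hist4h4 rose by 1.98 ± 0.57 (adjusted p = 0.038). Hist3h2a (0.21, adjusted p = 0.739) and Hist3h2bb-ps (-0.31, adjusted p = 0.901) did not pass, and the sign of Hist3h2bb-ps turned under other scalings, to 1.17 with quantile normalization.

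Hist1h1t was the 1 member called lower in WT-labelled PMN-MDSCs. It passed the filter on low values only through 4 UT libraries, 2 of each label, so a fall was the only call it could get. It encodes the testis-type linker histone, made in spermatocytes, and lies at chr13:23695814-23696725 with all windows unique. It was listed at 0 in all 3 LD libraries of WT-labelled PMN-MDSCs, against 6.12, 14.4 and 45.7 normalized counts in UT libraries. That is 0 reads in LD and 38 in UT libraries, at least 14.9-fold lower after lymphodepletion when the floor of 3 reads is set over the group (fitted log2 change -4.11 ± 1.13, limma, adjusted p = 0.0337). KO-labelled PMN-MDSCs gave 0 reads in LD libraries, against 26 reads in UT libraries with 14.8, 3.02 and 16.8 normalized counts, at least 11.3-fold lower (adjusted p = 0.269). In M-MDSCs the gene was too low to be tested. KO-labelled M-MDSCs held 26 reads in LD and 10 in UT libraries, and WT-labelled M-MDSCs held 34 in LD and 5 in UT libraries. In the WT-labelled PMN-MDSCs the call was lost without LD replicate 2 or 3, without any 1 of the 3 UT libraries, with quantile normalization and with edgeR on reads. The other testis-type genes had hardly any reads, 2 in all 24 libraries for Hist1h2aa and 8 for Hist1h2ba.

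In KO-labelled PMN-MDSCs the change of histone transcripts with lymphodepletion did not pass the test. The core sum was 3294, 8266 and 2976 normalized counts in LD libraries, against 1150, 2539 and 3458 in UT libraries. The groups overlapped, since UT replicate 3 was above 2 of the 3 LD libraries, which are replicates 1 and 3. The means were 4845 ± 2967 in LD and 2382 ± 1162 in UT libraries (SD, n = 3 each), a ratio of 2.03. H4 genes were the 1 core type without overlap, at a ratio of 2.67. With limma 0 of the 57 tested members passed, against 0% of the 12971 genes tested called higher and 0.224% called lower. At an unadjusted p under 0.05 there were 11 higher (3.97% of all genes) and 1 lower, edgeR called 0 and DESeq2 called 2. The median log2 difference was 1.21, against -0.07 for all genes tested. Only 25 of the 57 reached 10 normalized counts in all 3 UT libraries, and their median was 0.81. Hist1h4f had the largest difference, 2.85 ± 0.84 (adjusted p = 0.208), with 95.8, 588 and 88.8 normalized counts in LD, against 4.95, 37.3 and 59.4 in UT libraries. Hist1h4d had 253, 929.6 and 249.8 in LD, against 47.0, 201 and 299 in UT libraries, and overlapped (1.45 ± 0.67, adjusted p = 0.477). Hist4h4 had 54.0, 114 and 56.8 in LD, against 19.8, 21.2 and 41.6 in UT libraries, with no overlap (1.41 ± 0.57, adjusted p = 0.4).

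Between the genotype labels the untreated M-MDSCs differed most. Histone transcripts were higher in KO-labelled than in WT-labelled UT M-MDSCs: the core sum was 5095, 3271 and 7282 normalized counts in KO-labelled libraries, against 2410, 2453 and 2069 in WT-labelled libraries. The ratio of the means was 2.26 and the groups did not overlap. By limma 13 of the 56 tested members were higher and none lower, against 2.24% of the 11570 genes tested that were higher and 1.79% that were lower. At an unadjusted p under 0.05 there were 38 higher, against 11.4% of all genes. In the WT-labelled UT libraries 39 of the 56 reached 10 normalized counts in all 3, and 9 of those 39 were called. The 13 were 4 H3 genes (Hist1h3b, Hist1h3c, Hist1h3f and Hist1h3i), 4 H2B genes (Hist1h2bb, Hist1h2bh, Hist1h2bm and Hist1h2bn), 4 H4 genes (Hist1h4d, Hist1h4h, Hist1h4k and Hist2h4) and Hist1h1d. Among the H2A genes 0 of 13 passed with limma and 9 had an unadjusted p under 0.05.

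Hist1h3c had 52.3, 22.5 and 88.4 normalized counts in KO-labelled UT M-MDSCs, against 2.36, 10.8 and 4.72 in WT-labelled UT M-MDSCs, a log2 difference of 2.98 ± 0.58 (limma, adjusted p = 0.0181). Hist1h3b had 90.8, 27.7 and 129.8 in KO-labelled, against 8.64, 8.33 and 6.61 in WT-labelled libraries (2.99 ± 0.69, adjusted p = 0.0342). Hist1h4d had 548, 339 and 647 in KO-labelled, against 191, 228 and 158 in WT-labelled libraries (1.37 ± 0.32, adjusted p = 0.0336). All KO-labelled libraries were above all WT-labelled libraries in these 3 genes, and replicate 3 was the highest KO-labelled one. Hist1h2bh differed by 2.59 ± 0.59 (adjusted p = 0.0318) and Hist1h2bm by 2.42 ± 0.63 (adjusted p = 0.0486). The count of 13 rests on single libraries. It was 0 without KO-labelled replicate 1 or 3, 23 without KO-labelled replicate 2, 0 without WT-labelled replicate 1 or 3 and 2 without WT-labelled replicate 2. It was also 0 with all 24 libraries in 1 fit, 5 without the filter, 6 with quantile normalization, 12 with edgeR and 28 with DESeq2. The same KO-labelled UT libraries carried more transcripts of other cells and of some S phase genes. All 6 NK cell genes were higher (sums of 5761 to 8622 in KO-labelled, against 1434 to 1697 in WT-labelled libraries), as were 4 of 6 T cell genes, 3 of 5 early granulocyte precursor genes and 6 of 30 S phase genes. Of all genes tested 2.24% were higher. No G2 and M phase gene passed by limma, and their sums overlapped, at 767.5 to 7738 in KO-labelled, against 808.7 to 861.2 in WT-labelled libraries. No B cell gene passed either, although the sums were 573 to 940 in KO-labelled, against 279 to 345 in WT-labelled libraries. The part of other cells or of cycling cells in the result was not tested.

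In the other genotype comparisons no member passed. KO-labelled LD M-MDSCs had a core sum 0.746 times that of WT-labelled LD M-MDSCs, with overlap, and limma called 0 of 56 (0.156% of all genes were higher and 0.0519% lower). There 3 members were lower at an unadjusted p under 0.05 (4.11% of all genes), edgeR called 0 and DESeq2 called 2. In UT PMN-MDSCs the ratio was 1.72 with overlap, and limma called 0 of 57 (0.00771% of all genes were higher and 0% lower), with 7 higher at an unadjusted p under 0.05 (1.94% of all genes) and 0 by edgeR or DESeq2. In LD PMN-MDSCs the ratio was 0.459 with overlap, and limma called 0 of 57 (0.00771% of all genes were higher and 0.00771% lower), with 7 lower at an unadjusted p under 0.05 (3.35% of all genes) and 0 by edgeR or DESeq2.

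**Figure D4:**
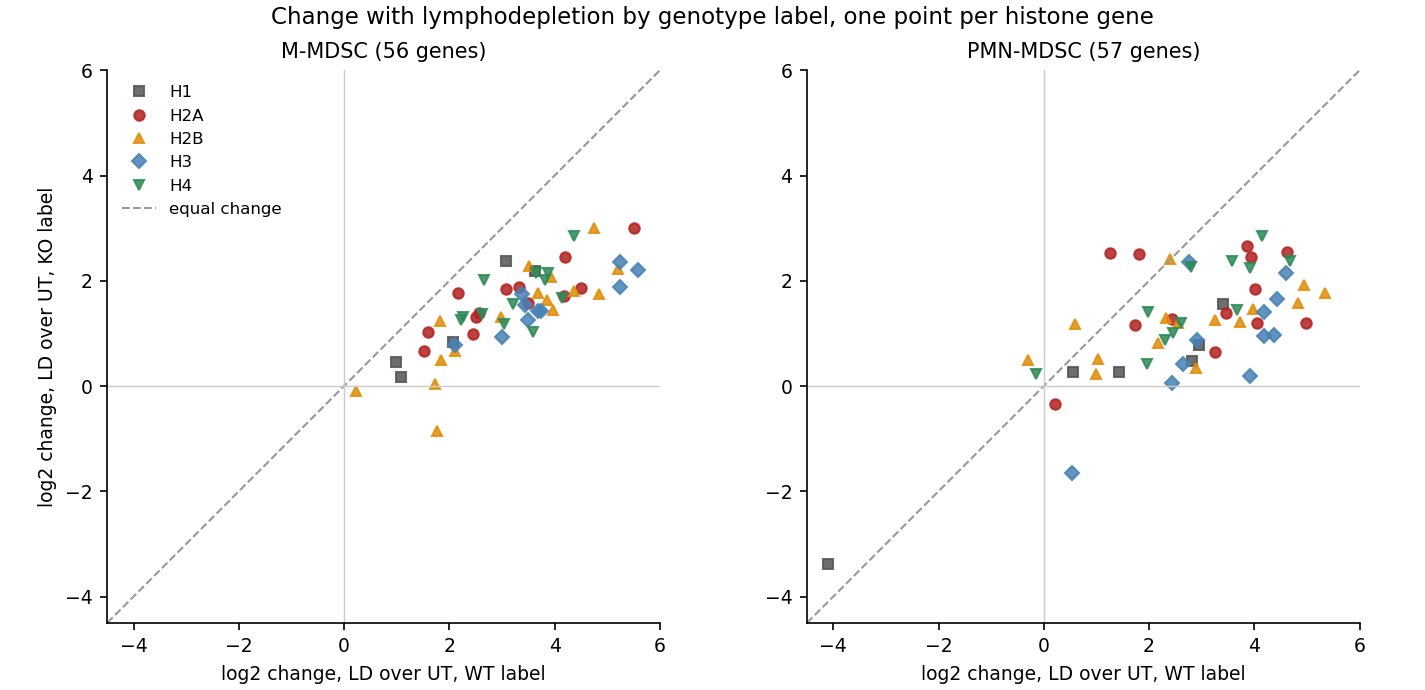
Log2 change with lymphodepletion (LD over UT) of each tested member with the KO label (vertical axis) and the WT label (horizontal axis), for M-MDSCs (56 genes) and PMN-MDSCs (57 genes), with a dashed line where the changes are equal. Most points lie below the line, but the difference between the labels passed the test for no member.

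An interaction term asked whether the lymphodepletion change depended on the label. In M-MDSCs the change was smaller with the KO label by a median of 1.68 on the log2 scale over the 56 tested members (interaction -1.68, range -3.39 to -0.32). By limma 0 of the 56 passed, against 0.00864% of all genes tested that were lower and 0% higher. At an unadjusted p under 0.05 there were 40, all lower with the KO label (5.77% of all genes were), edgeR called 0 and DESeq2 called 11. Hist2h4 had the smallest p (-2.57 ± 0.55, adjusted p = 0.273), and Hist1h3c had the interaction of greatest size (-3.39 ± 0.81, adjusted p = 0.315). In PMN-MDSCs the median interaction was -1.68, against 0.10 for all genes tested. By limma 0 of the 57 passed there and 0% of all genes were higher or lower, 17 were lower at an unadjusted p under 0.05 (3.68% of all genes), and edgeR and DESeq2 called 0. Without WT-labelled LD replicate 2, 1 member was called in M-MDSCs. The genotype comparisons and the lymphodepletion comparisons share libraries, so the higher untreated level with the KO label enters both.

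Between the cell types, most histone genes that differed were higher in M-MDSCs than in PMN-MDSCs. In the whole table genes higher and genes lower in M-MDSCs were both common. Core sums were 1.67 times as high in WT-labelled UT M-MDSCs as in UT PMN-MDSCs, without overlap. They were 1.92 times as high in WT-labelled LD and 2.19 times in KO-labelled UT cells, both with overlap, and 3.12 times in KO-labelled LD cells, without overlap. These ratios depend on the scaling: with reads divided by each library's total reads (CPM) the core sums were 2.70 times as high in WT-labelled UT, 2.62 times in WT-labelled LD, 3.24 times in KO-labelled UT and 4.203 times in KO-labelled LD cells, with overlap in the WT-labelled LD cells alone. In a fit of all 24 libraries 59 members were tested. In WT-labelled UT cells 18 of 59 were higher in M-MDSCs and 3 lower, against 22.2% and 28.3% of the 13457 genes tested. In WT-labelled LD cells 17 were higher and 0 lower by limma, against 19.4% and 19.9% of all genes. In KO-labelled UT cells 17 were higher and 1 lower, against 20.3% and 23.6%. In KO-labelled LD cells 32 were higher and 0 lower by limma, against 23.8% and 23.6%. The share of members higher was thus not far above that of all genes except in KO-labelled LD cells. The share of members lower was below that of all genes in all 4 comparisons. The number that reached 10 normalized counts in all 3 PMN-MDSC libraries was 26, 47, 25 and 42 of the 59, in the same order of groups.

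Hist1h4a (H4) was among the leading genes in all 4 of these comparisons. Its log2 difference between M-MDSCs and PMN-MDSCs was 2.52 ± 0.86 in WT-labelled UT, 2.38 ± 0.86 in WT-labelled LD, 3.07 ± 0.86 in KO-labelled UT and 2.81 ± 0.86 in KO-labelled LD cells (limma, adjusted p = 0.0183, 0.0306, 0.00598 and 0.0098). Hist2h2be, with 48.7, 54.1 and 34.9 normalized counts in WT-labelled UT M-MDSCs, against 11.01, 18 and 0 in UT PMN-MDSCs, differed by 2.92 ± 1.001 (adjusted p = 0.0188) and by 2.55 ± 1.001 in LD cells (adjusted p = 0.0471). Hist1h2ae (H2A) differed by 3.13 ± 0.98 in WT-labelled UT cells (adjusted p = 0.0112), with 30.6, 27.5 and 26.4 in M-MDSCs, against 1.22, 1.2 and 6.53 in PMN-MDSCs. In KO-labelled UT cells Hist1h3i (H3) led with 3.11 ± 0.69 (adjusted p = 0.000902), at 94.1, 47.6 and 90.4 in M-MDSCs, against 4.95, 21.2 and 3.96 in PMN-MDSCs. Hist1h2bg differed there by 2.70 ± 0.69 (adjusted p = 0.00289). Hist1h2ad had 27 reads in the M-MDSC libraries and 0 in the PMN-MDSC libraries, which is at least 4.80-fold higher with a floor of 3 reads over the group. In KO-labelled LD cells Hist1h1a led with 3.30 ± 0.67 (adjusted p = 0.000288), followed by Hist1h4a and Hist1h3i (2.72 ± 0.69, adjusted p = 0.00251). Hist1h2bp (2.37 ± 0.86, adjusted p = 0.0317) in WT-labelled LD cells and Hist1h2ai (2.37 ± 0.84, adjusted p = 0.0226) in WT-labelled UT cells complete the leading genes.

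Hist1h4i, Hist1h1c and Hist1h1t were lower in M-MDSCs than in PMN-MDSCs. Hist1h4i had 12.6, 11.7 and 16.04 normalized counts in WT-labelled UT M-MDSCs, against 79.5, 90.0 and 39.2 in UT PMN-MDSCs, without overlap (-2.22 ± 0.46, limma, adjusted p = 0.000384). It was also lower with the KO label, at 15.7, 23.1 and 27.2 in UT M-MDSCs, against 56.9, 61.4 and 163 in UT PMN-MDSCs (-1.90 ± 0.46, adjusted p = 0.00197). Hist1h1c was lower in WT-labelled UT M-MDSCs, with 2599, 2523 and 2239, against 3844, 4473 and 3970 in UT PMN-MDSCs (-0.74 ± 0.21, adjusted p = 0.00479), though quantile normalization gave 0.19. Hist1h1t, which passed the filter here through 2 LD M-MDSC and 4 UT PMN-MDSC libraries, was lower in WT-labelled UT M-MDSCs (-3.01 ± 0.88, adjusted p = 0.00674), with 1.57, 0 and 2.83, against 6.12, 14.4 and 45.7 in UT PMN-MDSCs. In LD cells the order was the opposite, with 14.4, 3.87 and 2.59 in WT-labelled LD M-MDSCs, against 0 in all 3 LD PMN-MDSC libraries, at least 6.60-fold higher. The interaction of cell type with lymphodepletion in WT-labelled cells was 5.70 ± 1.24 for Hist1h1t (adjusted p = 0.0289), a value that depends on the added 1 since 1 of its groups had no read. The filter favoured a positive value, because the libraries it passed through are of the cell types and treatments added in this term. Hist1h1t was the 1 member called of 59, against 0.587% of all genes tested that were higher and 0.201% lower. That call was lost with edgeR, with a pseudocount of 5, with quantile normalization and without WT-labelled LD M-MDSC replicate 1, UT M-MDSC replicate 1 or 2, or UT PMN-MDSC replicate 2 or 3. With the KO label limma called 0 of 59 (0.0372% of all genes were higher and 0.0594% lower), 3 were higher at an unadjusted p under 0.05 (5.03% of all genes), and edgeR and DESeq2 called 0.

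These cell type counts also rest on single libraries. In WT-labelled UT cells the 21 calls became 13 without UT PMN-MDSC replicate 3. In WT-labelled LD cells the 17 became 4 without LD M-MDSC replicate 1, 6 without LD M-MDSC replicate 3, 3 without LD PMN-MDSC replicate 1, 11 without LD PMN-MDSC replicate 2 and 28 without LD PMN-MDSC replicate 3. In KO-labelled UT cells the 18 became 9 without UT M-MDSC replicate 3 and 8 without UT PMN-MDSC replicate 1. In KO-labelled LD cells the 32 became 19 without LD M-MDSC replicate 2, 17 without LD M-MDSC replicate 3, 21 without LD PMN-MDSC replicate 1 and 13 without LD PMN-MDSC replicate 3.

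**Figure D5:**
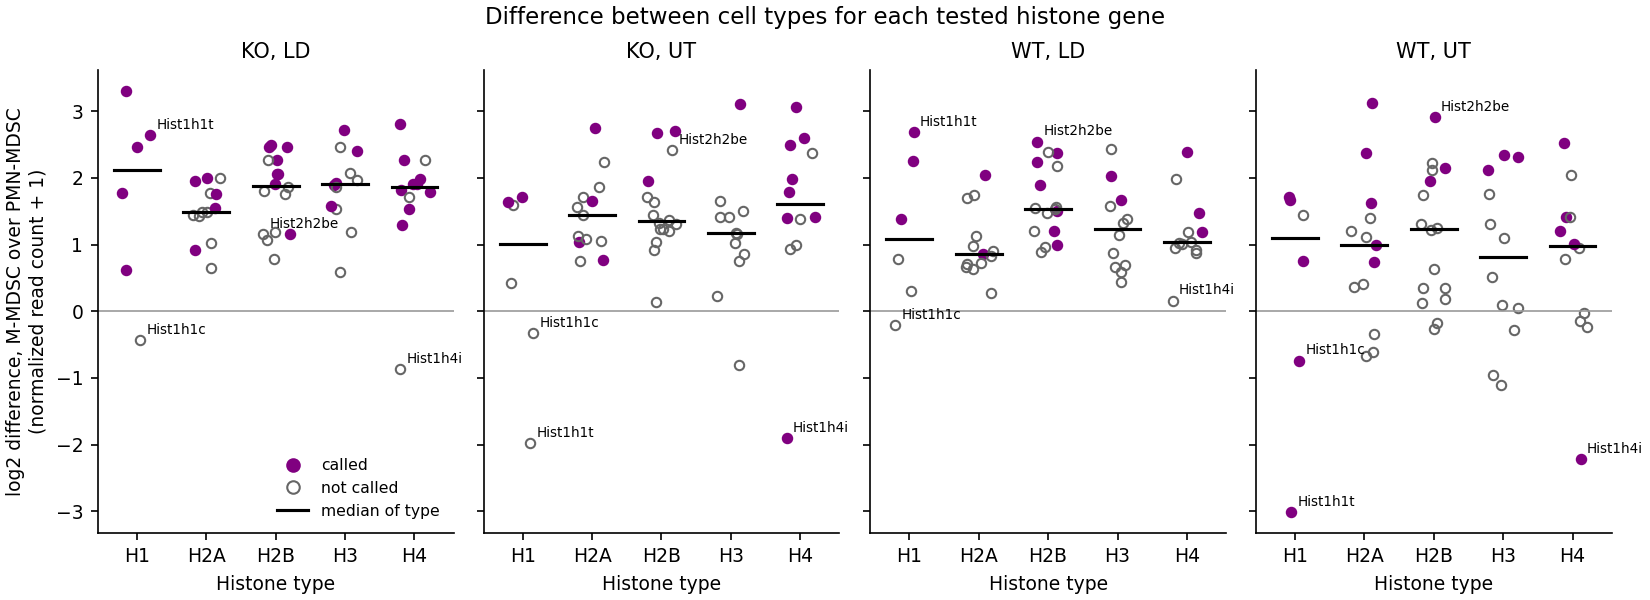
Log2 difference between M-MDSCs and PMN-MDSCs (M over PMN) of each tested member by histone type, in 4 panels for KO-labelled LD, KO-labelled UT, WT-labelled LD and WT-labelled UT cells. Filled points passed the adjusted p threshold and open points did not, and the numbers higher and lower were 32 and 0, 17 and 1, 17 and 0, and 18 and 3.

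Genes that work with the histones were read beside them. Of 30 S phase genes, which copy DNA or make its building blocks, limma called 21 higher with lymphodepletion in KO-labelled M-MDSCs, 29 in WT-labelled M-MDSCs, 0 in KO-labelled PMN-MDSCs and 12 in WT-labelled PMN-MDSCs. The shares of all genes called higher were 6.11%, 9.52%, 0% and 4.14% in the same order of comparisons. The median log2 changes of the S phase genes were 1.63, 2.75, 0.49 and 1.88, against -0.02, -0.07, -0.07 and -0.20 for all genes tested. The S phase sum was 9181 to 18430 in KO-labelled LD M-MDSCs, against 3002 to 7915 in UT M-MDSCs, and 9815 to 14962 in WT-labelled LD M-MDSCs, against 2386 to 2523 in UT M-MDSCs. In WT-labelled M-MDSCs Rrm1, a ribonucleotide reductase subunit, rose by 3.32 ± 0.37 (adjusted p = 0.000128), and Pole, a DNA polymerase subunit, by 3.81 ± 0.43 (adjusted p = 0.000135). In KO-labelled M-MDSCs Pola1, of the primase complex, rose by 2.04 ± 0.33 (adjusted p = 0.00234). Rrm2 rose by 4.15 ± 0.64 in WT-labelled PMN-MDSCs (adjusted p = 0.0065). All 10 genes of the G2 and M phases rose in both M-MDSC comparisons, 0 of 10 by limma in KO-labelled PMN-MDSCs and 9 of 10 in WT-labelled PMN-MDSCs. In 7 of the 8 groups the library with the lowest core histone sum also had the lowest S phase sum, and in 3 of the 8 the highest coincided.

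Genes that make and end histone messages were mostly not called, at shares near those of all genes. Of 17 such genes limma called 2 higher in KO-labelled M-MDSCs, 2 in WT-labelled M-MDSCs, 0 in KO-labelled PMN-MDSCs and 1 in WT-labelled PMN-MDSCs, against 6.11%, 9.52%, 0% and 4.14% of all genes tested. Slbp, which binds the stem-loop shown above, had 549, 547 and 905 normalized counts in WT-labelled LD M-MDSCs, against 326, 252 and 274 in UT M-MDSCs. The groups stood apart, and it rose by 1.195 ± 0.215 (limma, adjusted p = 0.00171). Zfp473, a zinc finger protein of the 3' end machinery, rose by 2.40 there (adjusted p = 0.0235), while Npat, the activator of histone gene transcription, gave 0.48 (adjusted p = 0.0571). Slbp in KO-labelled M-MDSCs gave 0.68 ± 0.21 (adjusted p = 0.0555), where Eri1, an exonuclease that trims histone messages, rose by 0.65 (adjusted p = 0.00907) and Srrt by 0.69 (adjusted p = 0.0153).

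Of 20 chaperone genes, which carry new histones to DNA, limma called 10 higher in KO-labelled M-MDSCs, 13 in WT-labelled M-MDSCs, 0 in KO-labelled PMN-MDSCs and 3 in WT-labelled PMN-MDSCs, beside the same 6.11%, 9.52%, 0% and 4.14% of all genes. Chaf1a, a subunit of chromatin assembly factor 1, rose by 2.52 ± 0.49 in KO-labelled M-MDSCs, 4.01 ± 0.49 in WT-labelled M-MDSCs and 2.37 ± 0.49 in WT-labelled PMN-MDSCs (adjusted p = 0.00555, 0.000152 and 0.0126). Asf1b, a carrier of H3 and H4, rose by 2.56 ± 0.54 in KO-labelled and by 4.52 ± 0.54 in WT-labelled M-MDSCs (adjusted p = 0.00848 and 0.000152). Histone variant genes not covered by the name rule were called higher in 4 of 9 tested, 5 of 9, 0 of 10 and 3 of 10 cases. The order is that of the chaperones, beside the same shares of all genes. H2afx, whose protein is phosphorylated at DNA breaks, rose by 2.14 ± 0.43 in KO-labelled M-MDSCs, 3.64 ± 0.43 in WT-labelled M-MDSCs and 3.57 ± 0.73 in WT-labelled PMN-MDSCs (adjusted p = 0.00648, 0.000144 and 0.0116). It gave 1.43 ± 0.73 in KO-labelled PMN-MDSCs (adjusted p = 0.532).

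Transcripts of other cells moved with lymphodepletion in the same libraries. Of all genes tested 6.11% rose and 5.52% fell in KO-labelled M-MDSCs, and 9.52% and 8.82% in WT-labelled M-MDSCs. In PMN-MDSCs 0% rose and 0.224% fell with the KO label, and 4.14% and 6.73% with the WT label. Early granulocyte precursor genes (Mpo, Elane, Prtn3, Ctsg and Ms4a3) rose in 5 of 5 cases in WT-labelled M-MDSCs, with sums of 4211 to 15057 in LD, against 45.5 to 117 in UT libraries. In WT-labelled PMN-MDSCs 3 of the 5 rose, with sums of 410.9 to 1332 in LD, against 6.53 to 28.8 in UT libraries. None of the 5 passed by limma in the KO-labelled comparisons. Their sums there were 5075 to 13247 in LD, against 223 to 7681 in UT M-MDSCs, and 35.7 to 162 in LD, against 29.7 to 93.0 in UT PMN-MDSCs. KO-labelled UT M-MDSC replicate 3, the library with 7681, also had the highest core histone sum of its group, 7282, and the highest S phase sum, 7915. B cell genes fell in 5 of 6 cases in WT-labelled M-MDSCs (sums of 34.8 to 68.8 in LD, against 279 to 345 in UT libraries) and in all 6 in WT-labelled PMN-MDSCs (34.9 to 122 in LD, against 854 to 988 in UT libraries). All 6 NK cell genes fell in both M-MDSC comparisons, with sums of 351 to 1135 in LD, against 5761 to 8622 in UT libraries with the KO label, and 150 to 324 in LD, against 1434 to 1697 in UT libraries with the WT label. T cell genes fell in 4 of 6 cases in KO-labelled M-MDSCs (sums of 112 to 370.5 in LD, against 768 to 1236 in UT libraries), 1 of 6 in WT-labelled M-MDSCs (58.6 to 96.5 in LD, against 195 to 305 in UT libraries), 0 of 6 by limma in KO-labelled PMN-MDSCs and 2 of 6 in WT-labelled PMN-MDSCs. Of the 6 granulocyte genes 2 rose in KO-labelled and 3 in WT-labelled M-MDSCs, where the sum of the 6 was 4615 to 9903 in LD, against 2751 to 2983 in UT libraries with the KO label, and 5868 to 21820 in LD, against 3226 to 3505 in UT libraries with the WT label. S100a8 rose by 3.11 ± 0.60 and S100a9 by 2.78 ± 0.64 with the KO label (adjusted p = 0.00545 and 0.0124), and the other 4 did not pass. With the WT label S100a8 rose by 5.02 ± 0.60, S100a9 by 5.13 ± 0.64 and Cxcr2 by 2.78 ± 0.64 (adjusted p = 0.000148, 0.00017 and 0.00826), and the other 3 did not pass. Of 6 red pulp macrophage genes C1qc (2.46, adjusted p = 0.00726) and Vcam1 (3.04, adjusted p = 0.00114) rose in WT-labelled M-MDSCs, and 0 of the 6 passed by limma in the other 3 comparisons. The globin genes Hba-a1, Hbb-bs and Hbb-bt were listed at 0 in all 24 libraries, and no precursor, B cell or NK cell gene was at 0 in every library. Whether these cells had a part in the histone values was not tested.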

How the data were processed

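RNA-seq libraries of 24 sorted cell samples were described in 1 deposited table of normalized counts. The authors deposited a signal per gene and library that is a read count divided by a size factor; per the submitters' processing notes the build was mm10 and the tools named are DESeq2, HTSeq 0.6.1 and STAR 2.5.3a. Settings for strand and multiply mapped reads are not given in the sources. Steps in the values gave whole reads for 100% of values (tolerance 0.001), which set the depth of 3249647 to 11193088 reads per library.

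Members were taken by symbol. The members and gene lists were chosen with earlier results of these data known. Genes with at least 10 normalized counts in at least 3 of the libraries fitted were tested on log2(normalized count + 1) with limma 3.58.1 (limma-trend, R 4.3.3), so fold changes of low genes are understated. Lymphodepletion and genotype were fitted on the 12 libraries of a cell type, cell type on all 24. P-values were Benjamini-Hochberg adjusted over all genes tested and called under 0.05, over 16 comparisons. Sums over members are given without a test. The count tests on recovered reads were DESeq2 1.42.0 and edgeR 4.0.16 with its quasi-likelihood test and TMM scaling. edgeR and DESeq2 called 33 and 38 members with lymphodepletion in KO-labelled M-MDSCs, 53 and 54 in WT-labelled M-MDSCs, and 39 and 47 in WT-labelled PMN-MDSCs.

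Named with values were the 3 most abundant members of each histone type, all Hist3 and Hist4 members, the testis-type members, up to 4 called members with the largest rise and fall in each comparison, members called against the majority, and members with known polyadenylated forms. Transcript features came from GENCODE vM21, matched by symbol. Promoters came from RefSeq (GRCm38.p6), matched by a listed synonym at the same genome position. In simulated data with 200 genes changed, the limma test called 94.7% of genes changed by 2 on the log2 scale in the WT-labelled M-MDSC comparison and 72.3% in the WT-labelled PMN-MDSC comparison. The changed genes were drawn only from genes above a minimum mean count, so these shares do not cover the lowest tested members. Alternatives were the pseudocount, no filter, quantile normalization, both count tests, a replicate block, 1 fit of all libraries and leaving out each library. Counting error and the spread of 3 libraries limit all values.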

Additional observations from a re-analysis of the deposited data

Results flagged for a closer look

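The interaction of cell type with lymphodepletion for Hist1h1t in WT-labelled cells was 5.70 ± 1.24 on the log2 scale (limma, adjusted p = 0.0289). It was singled out because the change with lymphodepletion differed between the cell types by a test of the difference itself. The gene had 34 reads in LD and 5 in UT M-MDSCs, and 0 reads in LD and 38 in UT PMN-MDSCs. With no read in 1 of the 4 groups the value depends on the added 1 and is no bound, and with a pseudocount of 5 or with edgeR the call was lost. The gene passed the filter only through 4 UT PMN-MDSC and 2 LD M-MDSC libraries. LD M-MDSCs and UT PMN-MDSCs are the groups that are added in the interaction. The filter therefore favoured a positive value, and the call is no independent support for one. With the KO label the interaction was 4.62 ± 1.24 (adjusted p = 0.218). Groups of 3 libraries are too small for a test of single outlying libraries.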

How the results depend on the processing

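When 1 library was left out, the members called with lymphodepletion numbered 15 to 42 in KO-labelled M-MDSCs, 52 to 54 in WT-labelled M-MDSCs and 11 to 44 in WT-labelled PMN-MDSCs. It was 0 to 23 for the KO against the WT label in UT M-MDSCs and 0 to 1 for the genotype interaction in M-MDSCs. Between the cell types it was 13 to 41 in KO-labelled LD, 8 to 27 in KO-labelled UT, 3 to 28 in WT-labelled LD and 13 to 24 in WT-labelled UT cells, and 0 to 2 for the interaction of cell type with lymphodepletion in WT-labelled cells. In the other comparisons no member was called by limma in any such fit. With all 24 libraries in 1 fit 5 members were called in KO-labelled M-MDSCs, 3 in KO-labelled PMN-MDSCs and 0 for the KO against the WT label in UT M-MDSCs. DESeq2 called 2 in KO-labelled PMN-MDSCs, 28 for the labels in UT M-MDSCs, 2 in LD M-MDSCs, 11 for the genotype interaction in M-MDSCs and 3 for the cell type interaction in WT-labelled cells. For the labels in UT M-MDSCs no filter gave 5 and quantile normalization 6. Quantile normalization gave 21 between the cell types in KO-labelled LD cells. edgeR gave 11 between the cell types in WT-labelled LD cells, and edgeR and a pseudocount of 5 gave 0 for the cell type interaction in WT-labelled cells. Leaving out the 3 shallowest PMN-MDSC libraries, an alternative chosen after seeing the data, gave 5 between the cell types in WT-labelled LD cells. The cause was not tested.

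A few single genes changed sign, all but Hist1h1c without passing the test in the values reported above. Hist1h1c between the cell types in WT-labelled UT cells gave 0.19 with quantile normalization. Hist3h2bb-ps with lymphodepletion in WT-labelled PMN-MDSCs gave 0.024 with a pseudocount of 5, 1.17 with quantile normalization, 0.58 with edgeR, 0.55 with DESeq2 and 1.18 without the shallowest libraries, and -1.17 to 0.86 with 1 library left out. It ranged over -0.25 to 0.53 in KO-labelled M-MDSCs and -0.14 to 1.46 in KO-labelled PMN-MDSCs. Hist2h2be ranged over -0.37 to 0.059 in KO-labelled M-MDSCs and -0.71 to 2.20 in WT-labelled PMN-MDSCs, and Hist3h2a over -0.09 to 0.45 in WT-labelled PMN-MDSCs. In KO-labelled PMN-MDSCs Hist1h2ak ranged over -0.007 to 2.10 and Hist1h3e over -0.11 to 0.85, and without the shallowest libraries they gave -0.007 and -0.11.

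Replicate numbers are shared by the groups, and whether a number marks one mouse is not known. Of the same-numbered pairs of M-MDSC and PMN-MDSC libraries, 4 of 6 LD pairs and 0 of 6 UT pairs had correlated deviations over 0.1, as had 2 of 24 pairs within a cell type. For 15 of 24 libraries the best match in the other cell type, among 3 candidates, had their own number. No group of 3 pairs was over 0.1 throughout, and the numbers were not used as pairs in the main fits. These values do not settle whether same-numbered libraries came from one mouse. With the replicate block 30 members were called in KO-labelled M-MDSCs, 53 in WT-labelled M-MDSCs, 39 in WT-labelled PMN-MDSCs and 10 for the labels in UT M-MDSCs. Between the cell types the block gave 35, 21, 18 and 22 in KO-labelled LD, KO-labelled UT, WT-labelled LD and WT-labelled UT cells, and no count moved by over 1.5 times. Scaling moved the median of all genes with lymphodepletion in WT-labelled PMN-MDSCs: it was -0.20 as reported and -0.05 with quantile normalization, and the members' median lay 3.10 and 3.28 above it. Precision is limited by 3 libraries a group, by the low depth of some PMN-MDSC libraries and by near-identical copies.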
